A study of Mus musculus with 18 samples.

Results

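The transcription factor p53 (gene Trp53) and 7 genes known as its targets or regulators were followed through a late step of T-cell maturation in the mouse thymus, with and without components of the linear ubiquitin chain assembly complex (LUBAC). The 8 genes were Trp53, Cdkn1a, Mdm2, Ccng1, Phlda3, Trp53inp1, Zmat3 and Ptprv, found by their Entrez gene identifiers among the 27179 genes of the count files. They were chosen with earlier results of these data known. Ptprv was chosen by a measured value, its higher CPM in HOIL-1-deficient (HoilΔCd4) than in control cells, and the others as well-known members of the pathway. The values of Ptprv in comparisons that use those cells are therefore given as a description, with no test.

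p53 is a DNA-binding protein that is kept scarce by the ubiquitin ligase MDM2 and accumulates after DNA damage and other stresses. It then switches on genes that arrest the cell cycle, repair DNA or start apoptosis, and Mdm2 itself, which closes a negative feedback loop. In the thymus p53 is known for the death of irradiated double-positive thymocytes and for a checkpoint on cells with unrepaired antigen receptor gene breaks. mRNA levels of Trp53 say little about the activity of the protein, so the target genes are read beside it.

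RNA was sequenced from thymocytes that carried CD69, a surface protein gained at positive selection, and that were sorted as MHC I low (earlier) or MHC I high (later). There were 9 mice, 3 of each genotype, and each mouse gave both fractions, which makes 18 samples. HoilΔCd4 mice carried a loxP-flanked Rbck1 gene, which encodes the LUBAC subunit HOIL-1, and a Cd4Cre transgene that removes it from the double-positive stage of T-lineage cells onwards. Sharpin-cpdm mice lacked the LUBAC subunit SHARPIN in all their cells. The controls were wild-type (WT) mice. The cpdm strain came from a C57BL/Ka background and was still largely of it, whereas the HoilΔCd4 and WT mice were C57BL/6, so an effect of SHARPIN loss and one of the strain cannot be told apart. The age of the sequenced mice was not given in the sources used here, which state ages only for mice of other assays.

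A sample held between 10577966 and 16266128 counts. Rbck1 lay between 217 and 268 CPM (counts scaled to the total of the library) in all WT and Sharpin-cpdm samples, at 0.271 to 0.779 CPM in HoilΔCd4 MHC I low cells and at 3.72 to 8.94 CPM in HoilΔCd4 MHC I high cells. Sharpin lay at 66.4 to 77.9 CPM in Sharpin-cpdm samples and at 81.2 to 116 CPM in the others, so its mRNA remained. By Xist and the Y-linked Ddx3y the 3 WT mice were female, as were HoilΔCd4 mouse 3 and Sharpin-cpdm mouse 2, and the other 4 were male. The MHC I high library of HoilΔCd4 mouse 2, a male, held 64.6 CPM of Xist and the highest Rbck1 of the HoilΔCd4 samples, so calls in HoilΔCd4 high cells are also given without this mouse. Leaving it out took the genes called between HoilΔCd4 and WT high cells from 851 to 171. Other omissions did likewise, with 195 called without WT mouse 1, 134 without WT mouse 3 and 293 without HoilΔCd4 mouse 3. Without WT mouse 2 there were 982 and without HoilΔCd4 mouse 1 there were 1219. T-lineage markers summed to 3831 to 6696 CPM. Of markers of other cells, those of B cells summed to 3.41 to 5.94 CPM, of myeloid and dendritic cells to 23.0 to 33.3 CPM, of thymic epithelium to 5.68 to 11.7 CPM and of erythroid cells to at most 0.565 CPM. The 4 NK markers summed to 1.49 to 2.68 CPM in MHC I low and 30.0 to 52.9 CPM in MHC I high cells, with the NK-defining receptor gene Ncr1 at 0. The part of any of these in the differences between fractions was not tested.

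Promoter sequence places Cdkn1a and Ccng1 beside a close match to the p53 response element, a pair of half-sites of 10 bases each, here without a spacer. RefSeq windows of 250 bases before the start (build GRCm38.p6) were found for 5 of the 8 genes: Trp53, Cdkn1a, Mdm2, Ccng1 and Phlda3. Both strands are covered, since the element is its own reverse complement, and the best 20-base match is in capitals with 10 bases on each side, 5′ to 3′ on the strand of the gene. They are shown because Ccng1 and Cdkn1a, with matches equally close, had very different levels in these cells.
Cdkn1a, chr17:29090918-29090957, plus strand: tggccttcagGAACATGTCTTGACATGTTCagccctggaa
Ccng1, chr11:40755452-40755491, minus strand: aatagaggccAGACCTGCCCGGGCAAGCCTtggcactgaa
Trp53, chr11:69580274-69580313, plus strand: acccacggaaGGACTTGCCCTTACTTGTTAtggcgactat
The Cdkn1a and Ccng1 matches differed from the element at 1 base each and began 51 and 195 bases before the start. Of 32851 mouse promoter windows of the same length, 0.0761% held a match as close. The Trp53 match had 3 mismatches, as close as that in 5.32% of windows. Cdkn1a has a second annotated start, at which the window (chr17:29093519-29093768) held a best match of 5 mismatches. In the Mdm2 and Phlda3 windows the best match also had 5 mismatches, which 71.1% of windows equalled or bettered. A match describes the letters only, and a window with none says nothing of sites elsewhere in the gene.

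The 8 genes differed widely in their level. On a scale per gene length (RPKM, group means), Trp53inp1 at 93.0 to 151 and Trp53 at 87.2 to 124 stood highest, with ranges that overlapped. Ccng1 (49.2 to 56.4 RPKM) and Mdm2 (47.5 to 54.6 RPKM) could not be separated from each other by their group ranges. Zmat3 lay at 3.86 to 7.27 RPKM. Ptprv lay at 3.45 to 3.92 RPKM in WT and Sharpin-cpdm cells and at 16.5 and 18.9 RPKM in HoilΔCd4 cells. Phlda3 (0.795 to 2.71 RPKM) and Cdkn1a (0.0777 to 0.230 RPKM) were lowest. The plot of the 8 genes by sample shows all values in CPM.

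**Figure D1:**
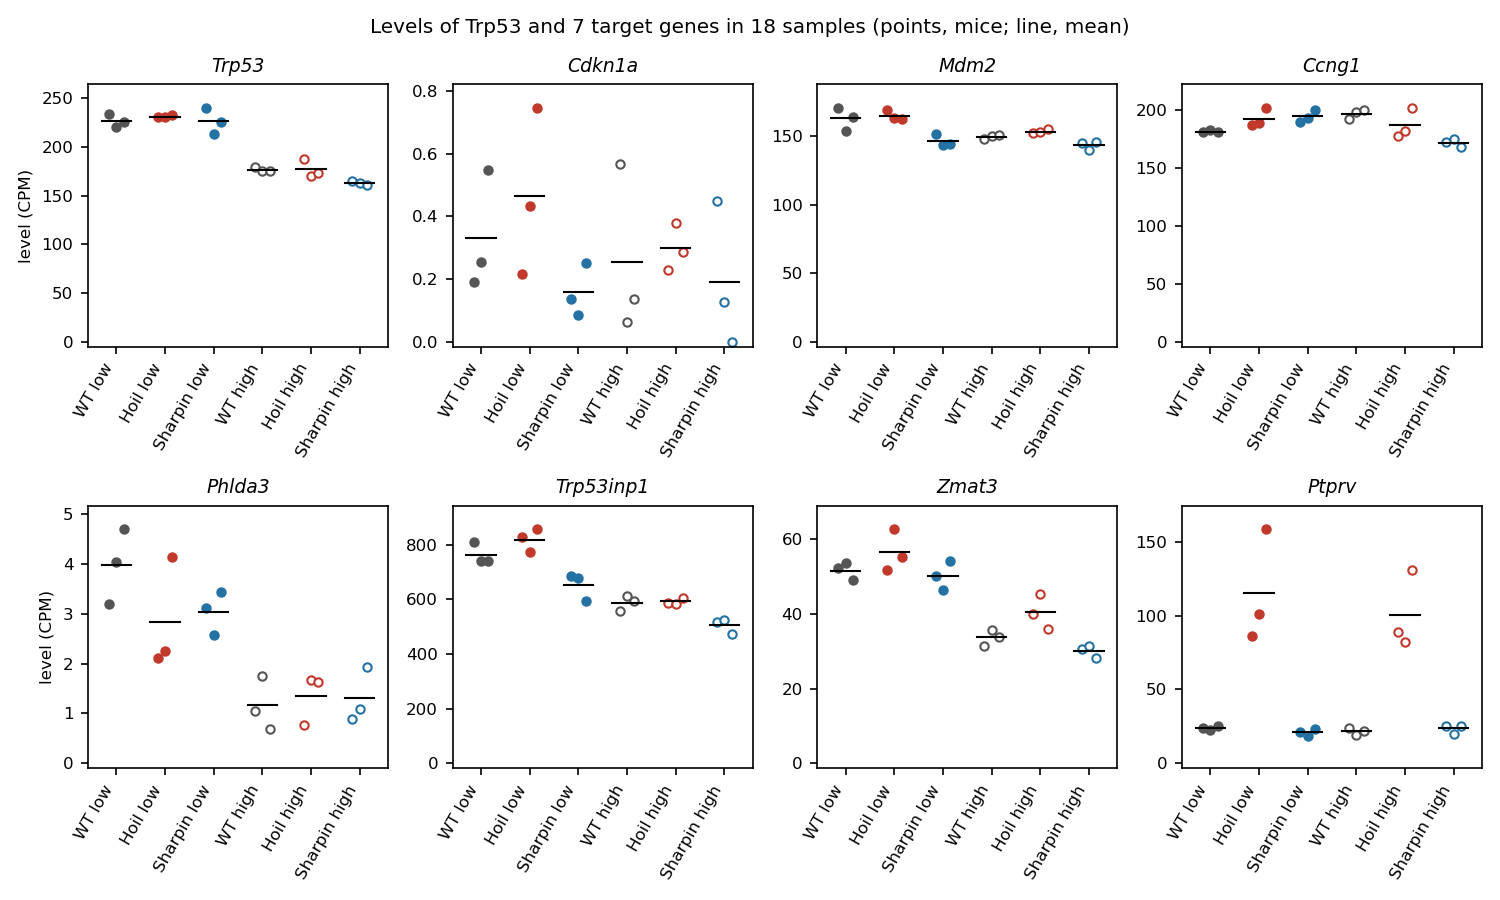
Levels in CPM of the 8 genes in each of the 18 samples, 1 panel per gene (linear y axis). Filled points are MHC I low and open points MHC I high cells, grey is WT, red HoilΔCd4 and blue Sharpin-cpdm, and each line is the mean of 3 mice. Trp53, Trp53inp1, Zmat3 and Phlda3 sit lower in the MHC I high samples of each genotype, and Ptprv stands apart in the 6 HoilΔCd4 samples.

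Trp53 was lower in the later fraction in every genotype, and neither mutation changed it past the threshold. In WT mice its level in mice 1 to 3 was 233, 221 and 225 CPM in MHC I low cells and 179, 175 and 175 CPM in MHC I high cells. In HoilΔCd4 mice it was 230.1, 230.1 and 233 CPM in low and 187, 169.6 and 173 CPM in high cells. In Sharpin-cpdm mice it was 239.9, 213 and 225 CPM in low and 165, 163 and 161 CPM in high cells. Low and high samples did not overlap in any genotype. The log2 change from low to high, in a limma model over all genes with Benjamini-Hochberg adjustment, was −0.37 in WT (SE 0.0426, adjusted p = 1.28e-08), −0.40 in HoilΔCd4 (SE 0.0524, adjusted p = 2.05e-07) and −0.46 in Sharpin-cpdm cells (SE 0.0447, adjusted p = 2.96e-10). The change did not differ past the threshold between WT and HoilΔCd4 (difference −0.03, 95% interval −0.17 to 0.11) or between WT and Sharpin-cpdm mice (−0.09, −0.22 to 0.03). Against WT, the HoilΔCd4 difference in Trp53 was 0.02 (−0.09 to 0.14) in low and −0.01 (−0.11 to 0.10) in high cells. The Sharpin-cpdm difference was −0.02 (−0.12 to 0.09) in low cells. In high cells it was −0.11 (SE 0.0469) with no overlap between the groups, but its adjusted p was 0.149.

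Trp53inp1, Zmat3 and Phlda3 fell with maturation in each genotype as well. Of the 7 genes other than Ptprv, Trp53 included, 5 were lower and 1 higher in WT MHC I high than low cells, 4 were lower and 0 higher in HoilΔCd4, and 5 were lower and 0 higher in Sharpin-cpdm mice. The shares of all 12798 genes tested that were called in these comparisons were 26.8% lower and 27.5% higher in WT, 21.7% and 23.5% in HoilΔCd4, and 27.4% and 27.2% in Sharpin-cpdm mice. The median log2 change of the 7 genes was −0.38, −0.42 and −0.38, beside medians of all genes near 0. The HoilΔCd4 median was the value of Cdkn1a, which rests on very few counts. The values next to it in rank were those of Trp53inp1 (−0.47) and Trp53 (−0.40). In bulk samples a smaller share of cells with the transcript and less transcript per cell cannot be told apart. The sum of 12 proliferation markers moved with the fraction too, from 473 to 515 CPM in WT low to 1217 to 1293 CPM in WT high samples, and its part in these differences was not tested.

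Trp53inp1, a p53-induced gene whose product acts in autophagy and cell death, was the most abundant target. Its level in WT mice 1 to 3 was 809, 739.9 and 740.0 CPM in low and 556, 613 and 594 CPM in high cells. HoilΔCd4 mice gave 827, 774 and 856 CPM in low and 587, 584 and 606 CPM in high cells. Sharpin-cpdm mice gave 685, 678 and 596 CPM in low and 516, 525 and 474 CPM in high cells. Every high sample lay below every low sample of its genotype, with log2 changes of −0.38 (SE 0.0463, limma adjusted p = 2.81e-08), −0.47 (SE 0.0569, 3.86e-08) and −0.38 (SE 0.0486, 9.79e-08) in WT, HoilΔCd4 and Sharpin-cpdm mice. The Sharpin-cpdm samples also lay below all WT samples of the same fraction. That difference was −0.22 in low (SE 0.0563, adjusted p = 0.0103) and −0.21 in high cells (SE 0.0509, adjusted p = 0.00778). It was past the threshold in 17 and 18 of the 20 alternative settings. In limma the low difference had an adjusted p of 0.0877 with Xist as a covariate for sex. It had 0.101 without WT mouse 1 and 0.0584 without Sharpin-cpdm mouse 3. The high difference had 0.0541 without WT mouse 2 and 0.179 without WT mouse 3. HoilΔCd4 cells were close to WT, with differences of 0.10 (−0.03 to 0.23) in low and 0.01 (−0.10 to 0.12) in high cells. They exceeded Sharpin-cpdm cells by 0.32 in low (SE 0.0635, adjusted p = 0.00137) and 0.22 in high cells (SE 0.0562, adjusted p = 0.0142). The high difference had an adjusted p of 0.0611 without HoilΔCd4 mouse 2, 0.106 without HoilΔCd4 mouse 3 and 0.0613 without Sharpin-cpdm mouse 3.

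Zmat3, which encodes a p53-induced RNA-binding zinc finger protein, fell more steeply with maturation than any of the 8 genes but Phlda3 in WT, and more than Trp53 and Trp53inp1 in each genotype by its fitted value. In WT mice it lay at 52.2, 53.5 and 49.0 CPM in low and 31.4, 35.8 and 33.9 CPM in high cells, a log2 change of −0.61 (SE 0.0681, limma adjusted p = 4.94e-09). In Sharpin-cpdm mice it lay at 50.1, 46.5 and 54.0 CPM in low and 30.7, 31.4 and 28.2 CPM in high cells, a change of −0.70 (SE 0.0714, adjusted p = 7.93e-10). In HoilΔCd4 mice it lay at 51.8, 62.6 and 55.3 CPM in low and 39.9, 45.2 and 36 CPM in high cells, a change of −0.48 (SE 0.0836, adjusted p = 2.02e-05). The lowest low sample was above the highest high sample in each genotype. The 3 HoilΔCd4 high samples were above the 3 WT high samples, but the difference of 0.26 (0.09 to 0.43) had an adjusted p of 0.0509, which ranged from 0.0380 to 0.473 over the alternatives and passed in 4 of 20. HoilΔCd4 high cells exceeded Sharpin-cpdm high cells by 0.41 (SE 0.0825, adjusted p = 0.00188), and without HoilΔCd4 mouse 2 the adjusted p was 0.0561. Differences of Zmat3 from WT in the other comparisons were 0.12 (−0.06 to 0.31) in HoilΔCd4 low, −0.06 (−0.23 to 0.11) in Sharpin-cpdm low and −0.15 (−0.30 to 0.00) in Sharpin-cpdm high cells.

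Phlda3, whose product inhibits the kinase AKT, was scarce and fell with maturation in each genotype. WT mice gave 3.20, 4.03 and 4.69 CPM (50, 63 and 60 counts) in low cells and 1.05, 1.76 and 0.690 CPM (13, 28 and 10 counts) in high cells. HoilΔCd4 mice gave 2.11, 2.25 and 4.14 CPM in low and 0.759, 1.67 and 1.63 CPM in high cells, and Sharpin-cpdm mice 3.11, 2.58 and 3.43 CPM in low and 0.896, 1.08 and 1.93 CPM in high cells. The groups did not overlap within a genotype, and the HoilΔCd4 mice spread the widest in low cells. The log2 change was −2.02 (SE 0.269, limma adjusted p = 1.76e-07) in WT, −0.99 (SE 0.330, 0.0147) in HoilΔCd4 and −1.24 (SE 0.282, 0.000434) in Sharpin-cpdm mice. The HoilΔCd4 change had an adjusted p of 0.0796 without HoilΔCd4 mouse 1 and 0.0932 without mouse 3. The changes in WT and HoilΔCd4 mice differed by 1.03 (0.16 to 1.90) with an adjusted p of 0.379, and no genotype comparison of Phlda3 passed the threshold at this depth. Against WT these differences were −0.44 (−1.17 to 0.29) and 0.59 (−0.07 to 1.25) in HoilΔCd4 and −0.36 (−1.02 to 0.31) and 0.43 (−0.17 to 1.03) in Sharpin-cpdm low and high cells.

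Mdm2, the p53 ubiquitin ligase and the feedback target, moved little. It lay at 171, 154 and 164 CPM in WT low and 148, 150.2 and 151 CPM in WT high cells. In HoilΔCd4 mice it lay at 169, 163 and 163 CPM in low and 152, 153 and 155 CPM in high cells. In Sharpin-cpdm mice it lay at 152, 144 and 144 CPM in low and 145, 140.3 and 146 CPM in high cells. All high samples of WT and HoilΔCd4 mice lay below their low samples, whereas those of Sharpin-cpdm mice overlapped. The log2 change was −0.13 in WT (SE 0.0418, limma adjusted p = 0.0110), −0.10 in HoilΔCd4 (−0.21 to 0.00, adjusted p = 0.0996) and −0.03 in Sharpin-cpdm mice (−0.12 to 0.05, adjusted p = 0.523). The WT change was lost in edgeR (adjusted p = 0.0567), without WT mouse 1 (0.267) and without WT mouse 3 (0.123). In low cells Mdm2 was lower in Sharpin-cpdm than in WT mice by −0.16 (SE 0.0508, adjusted p = 0.0340), a call that 7 of 20 alternatives lost. Its adjusted p was 0.0641 in edgeR, 0.217 without WT mouse 1, 0.140 without WT mouse 3, 0.163 without Sharpin-cpdm mouse 2 and 0.100 without Sharpin-cpdm mouse 3. In high cells all Sharpin-cpdm samples lay below the WT samples, but the difference was −0.07 (−0.16 to 0.02, adjusted p = 0.389). HoilΔCd4 differences from WT were 0.01 (−0.10 to 0.12) in low and 0.03 (−0.07 to 0.14) in high cells.

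Ccng1 encodes cyclin G1, which recruits a phosphatase to MDM2, and its direction of change depended on the genotype. In WT mice it lay at 180.5, 182 and 180.4 CPM in low and 192, 198 and 199.6 CPM in high cells. In Sharpin-cpdm mice it lay at 189.8, 193 and 200.1 CPM in low and 172, 175 and 168 CPM in high cells. Thus all WT mice had more, and all Sharpin-cpdm mice less, Ccng1 in the later fraction, and in neither genotype did the fractions overlap. HoilΔCd4 mice gave 187, 188 and 202 CPM in low and 178, 182 and 201 CPM in high cells, which overlapped. Within these mice it fell in mice 1 and 2 and was nearly level in mouse 3 (201.6 to 201.4 CPM), so none rose. The log2 change was 0.13 in WT (SE 0.0420, limma adjusted p = 0.0126), −0.04 in HoilΔCd4 (−0.14 to 0.07, adjusted p = 0.573) and −0.17 in Sharpin-cpdm mice (SE 0.0440, adjusted p = 0.00171). The difference between the Sharpin-cpdm and WT changes was −0.29 (−0.42 to −0.17, adjusted p = 0.00626). Of the 7 genes other than Ptprv it was the only one called in this test of the difference, lower against 0.930% of all genes (2.20% higher). It had an adjusted p of 0.0956 in edgeR, fitted without a mouse term, and 0.0869 in limma without WT mouse 3. The WT rise alone was lost in 6 of 20 alternatives, among them edgeR (0.0788), DESeq2 (0.0591), a fixed term for the mouse number (0.0547) and each omission of a WT mouse (0.0514, 0.0540 and 0.187 without mice 1, 2 and 3). For HoilΔCd4 the difference of the changes was −0.16 (−0.30 to −0.03, adjusted p = 0.374). Compared with WT in the same fraction, Sharpin-cpdm cells had less Ccng1 in high cells (−0.20, SE 0.0461, adjusted p = 0.00543; 0.189 without WT mouse 3) and 0.10 more in low cells (−0.01 to 0.20, adjusted p = 0.235), with no overlap in either. HoilΔCd4 differences were 0.09 (−0.03 to 0.20) in low and −0.07 (−0.18 to 0.03) in high cells.

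**Figure D2:**
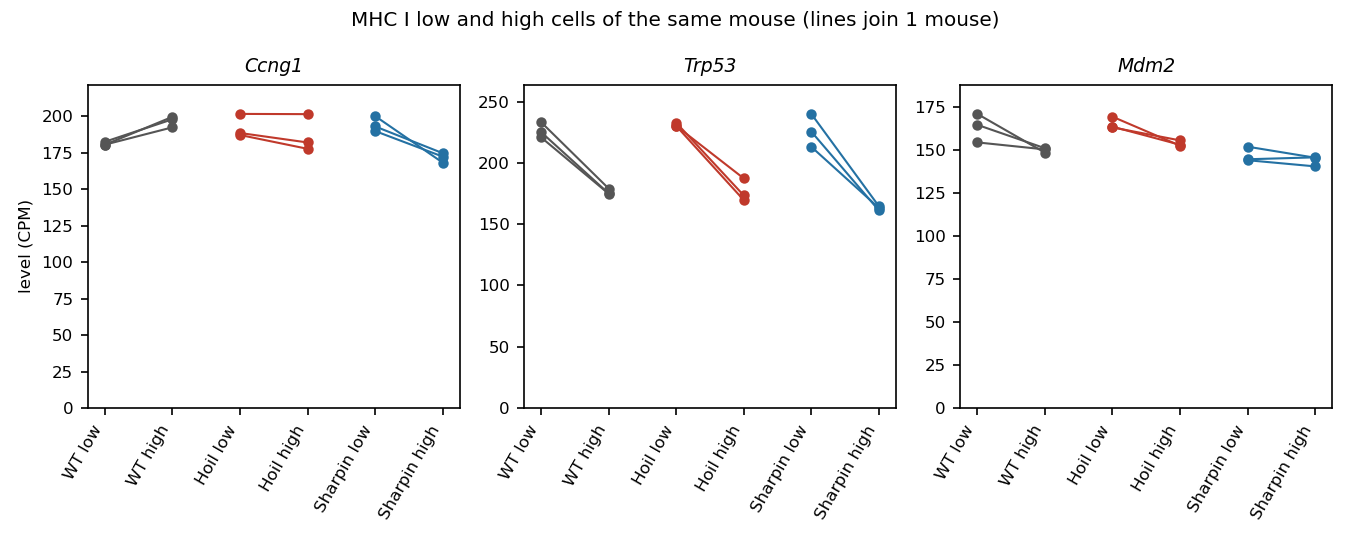
Levels in CPM of Ccng1, Trp53 and Mdm2 in the MHC I low and high fractions of each mouse, joined by 1 line per mouse (grey WT, red HoilΔCd4, blue Sharpin-cpdm). The Ccng1 lines go up in the 3 WT mice and down in the 3 Sharpin-cpdm mice, while all 9 Trp53 lines go down.

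Cdkn1a, which encodes the cyclin-dependent kinase inhibitor p21 and is the classical p53 target, was at the edge of detection. The libraries held 3, 4 and 7 counts in WT low, 7, 1 and 2 in WT high, 3, 5 and 11 in HoilΔCd4 low, 3, 5 and 3 in HoilΔCd4 high, 2, 1 and 3 in Sharpin-cpdm low and 7, 2 and 0 in Sharpin-cpdm high cells. The highest level was 0.746 CPM, in HoilΔCd4 low mouse 3. All groups overlapped, and at this depth no difference was detectable. The gene passed the filter (0.5 CPM in 3 samples) through 3 single samples of different groups. An unnamed transcript of the opposite strand shares 273 exonic bases with Cdkn1a, and these few counts could include it: the kit named in the labels (TruSeq RNA) is not the strand-marking version, and the strand setting of the counting was not given.

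Against WT, 0 of the 7 genes other than Ptprv were called in HoilΔCd4 cells of either fraction. Of all genes, 0.422% were called higher and 0.563% lower in low cells and 3.84% higher and 2.81% lower in high cells. By limma at an unadjusted p under 0.05, 0 of the 7 passed in low cells and 1, Zmat3, in high cells, and edgeR and DESeq2 called 0 in both. In Sharpin-cpdm cells 2 of the 7 were lower in low cells (Mdm2 and Trp53inp1), beside 6.92% of all genes, and 2 were lower in high cells (Ccng1 and Trp53inp1), beside 4.47%. None was higher, beside 5.31% and 4.15%. At an unadjusted limma p under 0.05, 2 passed in low and 3 in high cells, all lower, and edgeR called 1 and 2 and DESeq2 2 and 2. The calls behind both limma counts were lost when single mice were left out. Without WT mouse 1 the adjusted p in low cells was 0.217 for Mdm2 and 0.101 for Trp53inp1. Without Sharpin-cpdm mouse 3 it was 0.100 and 0.0584. Without WT mouse 3 that in high cells was 0.189 for Ccng1 and 0.179 for Trp53inp1. Calls over all genes fell in the same omissions. In low cells they went from 1565 to 841 without WT mouse 1 and 998 without Sharpin-cpdm mouse 3. In high cells they went from 1103 to 238 without WT mouse 3. The medians of the 7 log2 differences were 0.09 and 0.03 in HoilΔCd4 and −0.16 and −0.15 in Sharpin-cpdm low and high cells. HoilΔCd4 compared with Sharpin-cpdm directly gave 1 gene higher in low cells (Trp53inp1; 5.12% of all genes higher, 4.36% lower) and 2 higher in high cells (Trp53inp1 and Zmat3; 3.71% higher, 3.02% lower). In low cells Mdm2 had a difference of 0.17 (SE 0.0573, limma adjusted p = 0.0519), which 6 of 20 alternatives brought past the threshold. In high cells Trp53 (0.10, −0.00 to 0.21, adjusted p = 0.243), Mdm2 (0.10, 0.00 to 0.21, 0.235) and Ccng1 (0.12, 0.02 to 0.23, 0.148) did not pass. The other differences of these genes were 0.04 (−0.08 to 0.16) for Trp53, −0.01 (−0.12 to 0.11) for Ccng1 and 0.19 (−0.00 to 0.38) for Zmat3 in low cells, and −0.09 (−0.84 to 0.67) and 0.16 (−0.51 to 0.83) for Phlda3 in low and high cells. The 2 sets of differences from WT share the WT samples. In the test of whether a HoilΔCd4 effect differed between the fractions 0 of the 7 passed (2 at an unadjusted p under 0.05, 0 in edgeR and DESeq2), beside 0.297% of all genes higher and 0.102% lower.

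**Figure D3:**
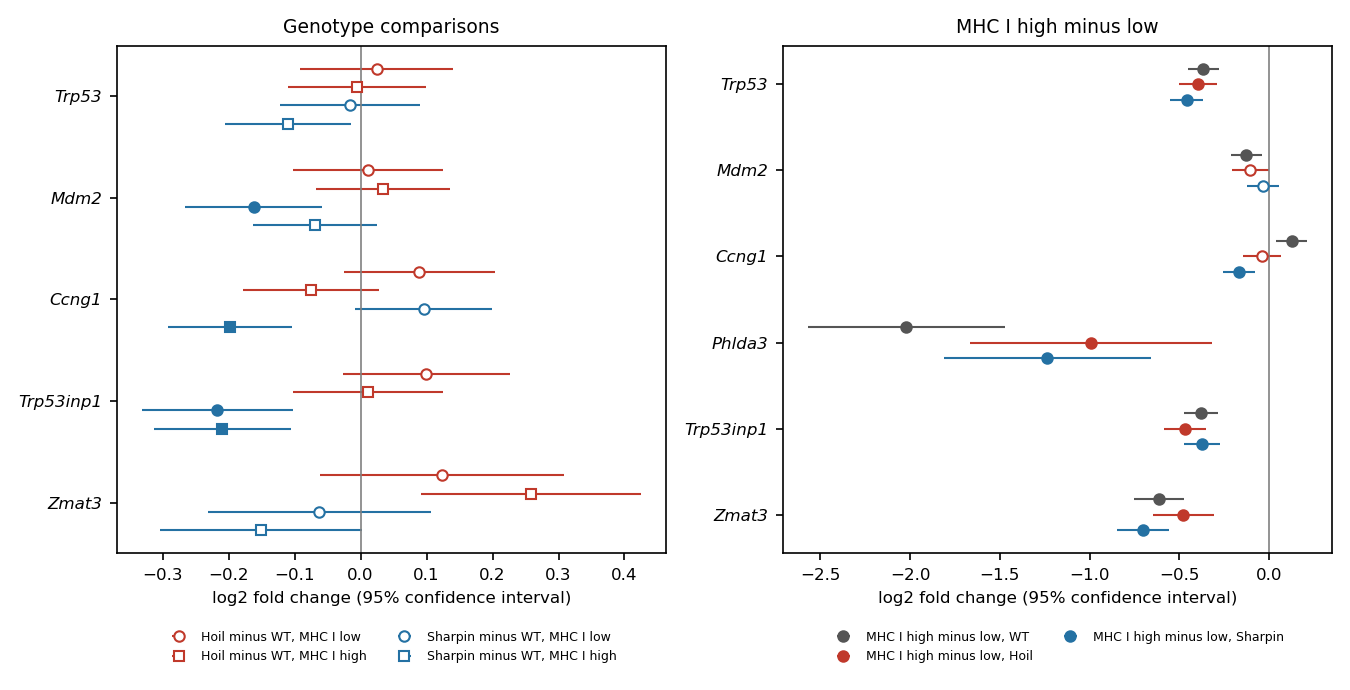
Log2 fold changes from the limma model with 95% intervals. The left panel holds the genotype comparisons of 5 genes, the right panel MHC I high minus low of the same genes and Phlda3, and filled symbols mark an adjusted p under 0.05. The called genotype values are all Sharpin-cpdm values below 0: Trp53inp1 in both fractions, Mdm2 in low and Ccng1 in high cells. The value furthest from 0 in the left panel, Zmat3 in HoilΔCd4 high cells (0.26), is not called. In the right panel Trp53, Trp53inp1, Zmat3 and Phlda3 lie below 0 in all 3 genotypes.

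Ptprv, an old p53 target also called ESP, is listed by RefSeq as a transcribed pseudogene (chromosome 1, 135108498 to 135132575, mm10) and stood apart in HoilΔCd4 mice, for which it was chosen. The HoilΔCd4 mice held 85.9, 101 and 158 CPM in low and 88.8, 81.9 and 131 CPM in high cells. WT mice held 24.1, 22.3 and 25.2 CPM in low and 23.8, 19.1 and 21.9 CPM in high cells. Sharpin-cpdm mice held 21.2, 18.3 and 23.5 CPM in low and 25.4, 19.96 and 25.5 CPM in high cells. Every HoilΔCd4 sample was above every other sample, and mouse 3, the only female of the 3, was highest in both fractions. The ratio of the group means was 4.83 in low and 4.65 in high cells against WT, and 5.48 and 4.25 against Sharpin-cpdm. Without HoilΔCd4 mouse 2 the log2 difference from WT was 2.28 in low and 2.29 in high cells, beside 2.23 and 2.18 with it. Without mouse 3 it was 1.96 in both fractions. Comparisons of Ptprv that use no HoilΔCd4 samples were tested, and none passed. The WT samples in them had a part in choosing the gene, so these tests are not independent of the choice. The Sharpin-cpdm difference from WT was −0.23 (−0.62 to 0.16, limma adjusted p = 0.452) in low and 0.06 (−0.30 to 0.41, adjusted p = 0.886) in high cells. The change from low to high was −0.13 (−0.45 to 0.19) in WT and 0.16 (−0.18 to 0.49) in Sharpin-cpdm mice.

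Other features moved with Ptprv. Hspa1b, an inducible heat shock chaperone gene, lay at 35.7 to 55.6 CPM in WT, 115 to 227 CPM in HoilΔCd4 and 4.73 to 26.2 CPM in Sharpin-cpdm samples. The 5 heat shock and handling genes together summed to 312 to 413 CPM in WT low, 490 to 838 CPM in HoilΔCd4 low and 238 to 266 CPM in Sharpin-cpdm low samples. Among the HoilΔCd4 mice, mouse 2 held the most Hspa1b and mouse 3 the most Ptprv in both fractions. The part of the heat shock difference in the level of Ptprv was not tested. Within 500 kb on either side of Ptprv 9 other genes were tested. Their HoilΔCd4 differences from WT ran from −1.14 to 0.09 in low and from −0.63 to 0.13 in high cells, and 2 of them, Ppp1r12b and Rnpep, were lower in high cells. GENCODE places Gm10535 on the opposite strand over 345 exonic bases of Ptprv, whose counted length was 6089 bases. Without strand, reads over those shared bases cannot be assigned to 1 of the pair.

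**Figure D4:**
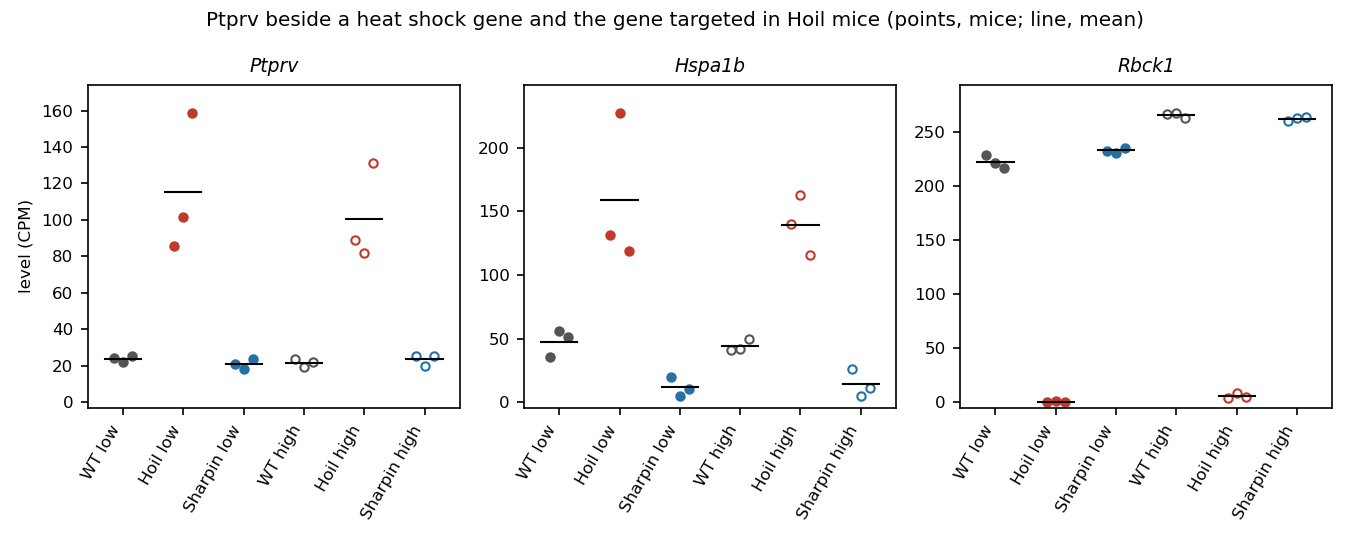
Levels in CPM of Ptprv, of Hspa1b and of Rbck1, the targeted gene, in each of the 18 samples (filled MHC I low, open MHC I high, grey WT, red HoilΔCd4, blue Sharpin-cpdm). The 6 HoilΔCd4 samples are above the others for Ptprv and Hspa1b and at 8.94 CPM or less for Rbck1, and the 6 Sharpin-cpdm samples are below the WT samples for Hspa1b but among them for Ptprv.

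A wider list of 41 p53 targets, without the 8 genes, gave no call in HoilΔCd4 low cells, 2 in HoilΔCd4 high, 4 in Sharpin-cpdm low and 8 in Sharpin-cpdm high cells. Of the 41, 36 passed the filter, and Eda2r was at 0 in every sample. In HoilΔCd4 low cells 0 of the 36 were called by limma, edgeR or DESeq2 (2 at an unadjusted limma p under 0.05), beside 0.422% of all genes higher and 0.563% lower. In HoilΔCd4 high cells 2 of 36 were higher, beside 3.84% of all genes, and 0 lower, beside 2.81%. These were Gtse1, a G2 phase regulator of p53, at 15.9 against 9.12 CPM in WT (log2 difference 0.80, SE 0.138, limma adjusted p = 0.000406), and Apaf1, the apoptosome scaffold, at 75.8 against 67.6 CPM (0.20, SE 0.0596, adjusted p = 0.0425). Without HoilΔCd4 mouse 2 Gtse1 had an adjusted p of 0.0297. Apaf1 was lost without that mouse (0.292), in edgeR (0.173), in DESeq2 (0.174) and in 13 of 20 alternatives in all. Gtse1 was higher in Sharpin-cpdm high cells too, at 14.9 CPM (0.70, SE 0.127, adjusted p = 0.000450). Proliferation markers moved with it: their sum was 1624 to 2003 CPM in HoilΔCd4 and 1443 to 1944 CPM in Sharpin-cpdm high samples, above WT, and their part was not tested.

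In Sharpin-cpdm mice the calls lay mostly among growth arrest and stress genes. Tob1, an antiproliferative gene, was at 30.7 against 43.0 CPM in low (log2 difference −0.50, SE 0.0892, limma adjusted p = 0.000258) and 26.2 against 42.9 CPM in high cells (−0.72, SE 0.0806, 2.51e-07). Its relative Btg2 was at 212 against 255 CPM in low (−0.26, adjusted p = 0.00944) and 209 against 286 CPM in high cells (−0.41, 2.62e-05). Sesn1, a stress-induced inhibitor of the growth kinase mTORC1, was lower by −0.19 (adjusted p = 0.0269) and −0.32 (0.000110). The death receptor gene Fas was lower by −0.21 (0.0385) and −0.20 (0.0333). These 4 of 36, beside 6.92% of all genes, were the calls in low cells, where 0 were higher, beside 5.31%. In low cells edgeR and DESeq2 lost Fas (0.0766 and 0.0709) and Sesn1 (0.0685 and 0.0512). Without WT mouse 1, or with Xist as a covariate for sex, Tob1 alone was called there. In high cells both tools (0.155 and 0.161) and the Xist covariate lost Fas. High cells had 6 lower, beside 4.47% of all genes, and 2 higher, beside 4.15%, adding Plk2 (−1.54, adjusted p = 0.00370; 0.443 against 1.41 CPM) and Sesn2 (−0.58, 0.00644), both named after their values were seen, as lower, and Pmaip1 as higher. Pmaip1, which encodes the BH3-only death protein NOXA, was at 3.02 against 1.23 CPM (1.28, SE 0.191, adjusted p = 2.86e-05). Over the 36 genes the median difference was −0.07 in low and −0.10 in high cells, and for the 12 tested growth arrest and stress genes it was −0.24 and −0.28. The 4 tested heat shock and handling genes moved with these calls, with medians of −1.30 in low and −1.37 in high cells, and their part was not tested. Without WT mouse 3 Plk2, Sesn2 and Fas were lost in high cells, and their highest adjusted p over the alternatives was 0.120, 0.144 and 0.429. None of the 10 tested repair and metabolism genes or the 3 feedback genes passed in a comparison with WT in limma, edgeR or DESeq2. By limma at an unadjusted p under 0.05, 0 of the 10 passed in each, and 1 of the 3 passed in Sharpin-cpdm low cells.

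Set against Sharpin-cpdm directly, HoilΔCd4 cells had 2 of the 36 higher and 1 lower in low cells and 5 higher and 1 lower in high cells. Of all genes 5.12% were higher and 4.36% lower in low cells, and 3.71% and 3.02% in high cells. Ddit4, a stress-induced gene, was at 213 against 94.0 CPM in low (1.11, SE 0.249, limma adjusted p = 0.0161) and 316 against 150 CPM in high cells (1.07, SE 0.221, 0.0127). Tob1 was higher by 0.35 (0.0243) and 0.53 (0.000208), and Pmaip1 lower by −0.77 (0.0382) and −0.78 (0.0222). In high cells Btg2 (0.27, 0.0120), Sesn2 (0.60, 0.0142) and the p53 phosphatase gene Ppm1d (0.23, 0.0314) were higher too. Without HoilΔCd4 mouse 2 Tob1 (0.00432) and Ddit4 (0.0341) were still called in high cells, whereas Btg2 (0.0720), Sesn2 (0.0831), Pmaip1 (0.193) and Ppm1d (0.203) were not. Ppm1d was also lost in edgeR (0.0594) and DESeq2 (0.0552), Pmaip1 high in DESeq2 (0.0890) and Ddit4 high in edgeR (0.0501). Leaving out Sharpin-cpdm mouse 2 lost all 3 calls in low cells, and leaving out Sharpin-cpdm mouse 3 all but 1 in high cells. The heat shock and handling genes moved the same way, with 3 of 4 called higher in both fractions and medians of 2.51 in low and 2.31 in high cells, and their part was not tested.

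**Figure D5:**
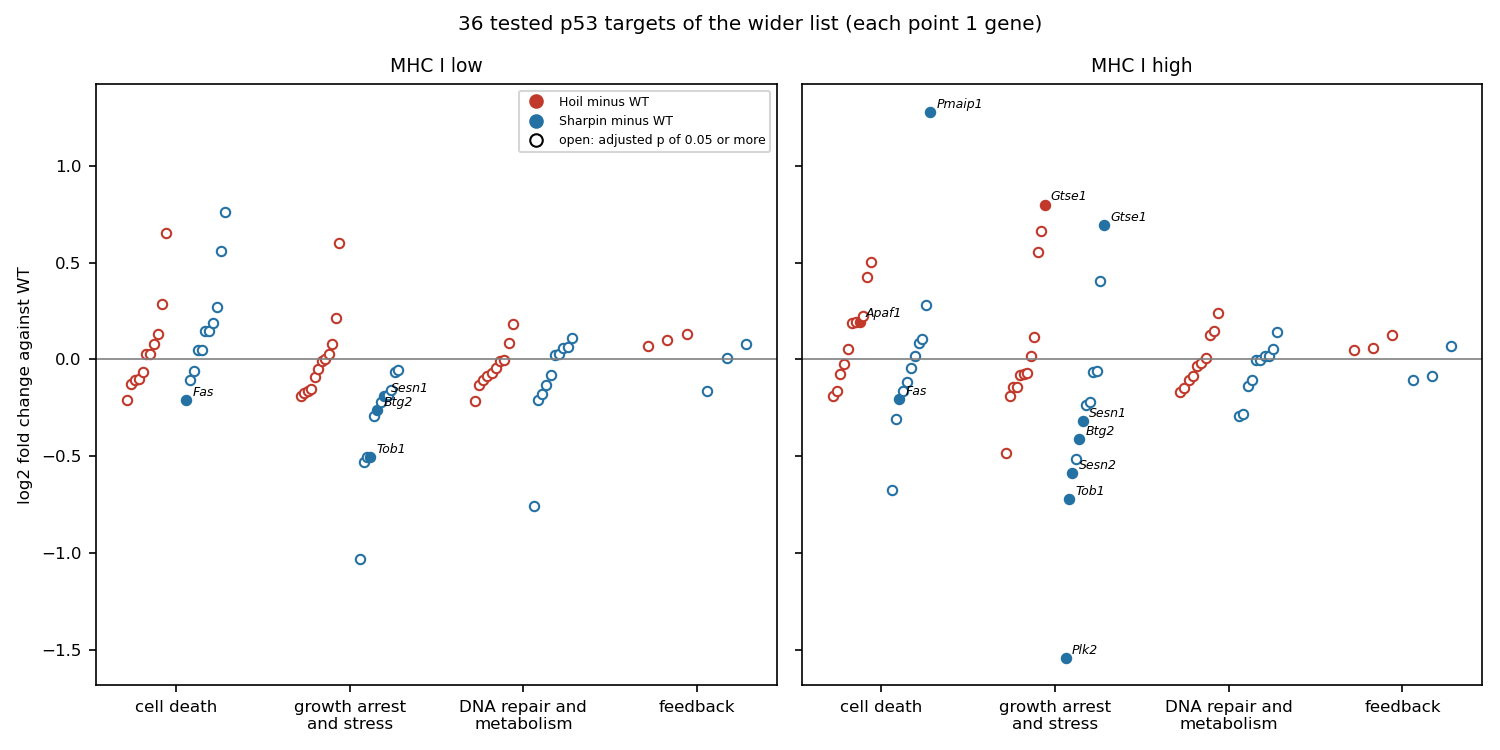
Log2 difference from WT of the 36 tested genes of the wider list, by group of targets, in MHC I low and high cells (red HoilΔCd4, blue Sharpin-cpdm, filled symbols adjusted p under 0.05 by limma). Most points lie near 0, the called points below 0 are Sharpin-cpdm values, and Gtse1 is called above 0 in high cells of both mutants.

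Between the fractions the wider list had calls in both directions. In WT mice 12 of the 36 were higher and 12 lower in high cells, in HoilΔCd4 13 and 10, and in Sharpin-cpdm mice 11 and 13, with medians of 0.01, −0.04 and −0.04. The shares of all genes were 27.5% higher and 26.8% lower in WT, 23.5% and 21.7% in HoilΔCd4 and 27.2% and 27.4% in Sharpin-cpdm mice. Cell death genes gave 5 lower and 3 higher in WT. Among them Bbc3, which encodes PUMA, fell from 29.7 to 16.1 CPM (−0.93, SE 0.0920, limma adjusted p = 4.04e-10), and Bax from 64.0 to 53.8 CPM (−0.26, SE 0.0627, 0.000736), both named after their values were seen. Gtse1 was the only gene of the 36 whose mutant effect differed between the fractions, by 0.81 in HoilΔCd4 (SE 0.183, adjusted p = 0.0441) and 0.75 in Sharpin-cpdm mice (SE 0.167, 0.0104). Of all genes, 0.297% were called higher in the first test and 2.20% in the second. edgeR and DESeq2, fitted without a mouse term or sample weights, made neither call. Of 12798 genes they called 1 and 20 in the HoilΔCd4 test and 30 and 134 in the Sharpin-cpdm test. Without HoilΔCd4 mouse 2 the HoilΔCd4 call for Gtse1 had a limma adjusted p of 0.319.

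Of 16 regulators and relatives of p53, 13 were tested. In HoilΔCd4 mice 0 were called in low cells (2 at an unadjusted p under 0.05, 0 in edgeR and DESeq2) and 1 in high cells, the checkpoint kinase gene Chek1 at 27.8 against 18.9 CPM (0.64, SE 0.148, limma adjusted p = 0.00724), beside 0.422% and 3.84% of all genes higher. Without HoilΔCd4 mouse 2 Chek1 had an adjusted p of 0.193. It was also lost without WT mouse 1, without WT mouse 3 and without sample weights, and its highest adjusted p over the alternatives was 0.286. In Sharpin-cpdm low cells the DNA damage kinase genes Atm (−0.27, adjusted p = 0.00651), Atr (−0.28, 0.00989) and Prkdc (−0.20, 0.0262) and the kinase gene Hipk2 (−0.46, 0.0268) were lower, 4 of 13 beside 6.92% of all genes. Without WT mouse 1 Atm, Atr and Hipk2 were lost (highest adjusted p over the alternatives 0.0695, 0.0907 and 0.161), and edgeR lost Hipk2 (0.0612). In high cells Trp53bp1, which encodes 53BP1, was higher by 0.19 (0.0168), 1 of 13 beside 4.15% of all genes, but edgeR (0.108) and DESeq2 (0.104) lost it. The Sharpin-cpdm effect was higher in high than in low cells, by limma, for 3 of 13 regulators, beside 2.20% of all genes. These were Atm (0.34, 0.0148), the Mdm2 relative Mdm4 (0.30, 0.0274) and Atr (0.31, 0.0395), all lost in edgeR (adjusted p of 0.101 or more), with Mdm4 alone kept in DESeq2 (0.0428). Of 4 other cyclin-dependent kinase inhibitor genes tested, Cdkn1b (p27) was lower in high cells of both mutants, by −0.22 in HoilΔCd4 (0.00699) and −0.23 in Sharpin-cpdm mice (0.00150). Cdkn2d was lower in HoilΔCd4 high cells (−0.24, 0.0266), and without HoilΔCd4 mouse 2 Cdkn1b (0.0608) and Cdkn2d (0.0942) were both lost there. Both were also lost there without WT mouse 1, WT mouse 3 or HoilΔCd4 mouse 3, with highest adjusted p of 0.0923 and 0.336. Cdkn2d was lost in edgeR (0.0686) and DESeq2 (0.0599) as well. Cdkn1c (p57) was lower in Sharpin-cpdm mice by −1.08 in low (0.0171) and −0.86 in high cells (0.0432), at 1.27 and 0.618 CPM, and the second was lost in 14 of 19 alternatives, the first in 5. These were 2 of 4 lower in HoilΔCd4 high (2.81% of all genes), 1 in Sharpin-cpdm low (6.92%) and 2 in Sharpin-cpdm high cells (4.47%). Against Sharpin-cpdm directly, Cdkn1c was higher in HoilΔCd4 low (limma adjusted p = 0.00243) and high cells (0.00611). Both calls were kept in 19 of 19 alternatives. It was the only 1 of the 4 called in either fraction, beside 5.12% and 3.71% of all genes higher.

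Genes with the most similar pattern over the 18 samples were found from the root mean square difference of centred log2 CPM. For Trp53, whose own SD was 0.21, they were Sh2d2a (0.0559), Vezf1 (0.0607) and Ptbp1 (0.0611). For Ptprv, with an SD of 1.07, the nearest were Itgb8 (0.620), Slc27a2 (0.674) and Rab17 (0.680), which is not close. For Cdkn1a, with an SD of 0.86, they were Bhlha15 (0.433), Nfe2l3 (0.590) and Trim17 (0.606), all at 2.24 CPM or less.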

How the data were processed

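Per the labels and the methods of the study, the authors sorted CD69+ thymocytes after removing dead cells and those with NK, B cell, myeloid, γδ T-cell or regulatory and memory T-cell markers, sequenced single reads and counted them with featureCounts over Entrez genes of mm10. The deposited values are raw counts. The members and gene lists were chosen with earlier results of these data known. The rule for naming took all 8 members, and up to 4 called genes of each list per genotype comparison by smallest p, beside the genes said to be named after their values were seen. For Cdkn1a counts, levels and similar patterns are given, but no test values. Here limma 3.58.1 (R 4.3.3, edgeR 4.0.16, statmod 1.5.0) tested 12798 genes with at least 0.5 CPM in 3 samples, leaving out Y-linked, predicted and unnamed genes and Xist. TMM log2 CPM (prior count 1; TMM factors 0.987 to 1.02) entered 1 model of 6 groups with sample weights (0.628 to 2.42), mouse as a random block (correlation 0.224), empirical Bayes with trend and robust settings and Benjamini-Hochberg adjustment over all genes at 0.05. RPKM and CPM were computed from the counts. The 2 fractions of a mouse come from 1 animal, and their deviations correlated at 0.0702 to 0.256 in the 9 mice. Tests were two-sided, intervals are 95%, and the code was checked on simulated counts. Alternatives were edgeR, DESeq2 1.42.0, other scalings, filters, weights, blocks and prior counts, Xist as a covariate, only the groups compared, and each mouse left out. The edgeR and DESeq2 fits held the 6 groups alone, with no mouse term and no sample weights, so they did not use the pairing of fractions. Promoter windows came from RefSeq. Counts of 10577966 to 16266128 per sample leave Cdkn1a at counting noise.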

Additional observations from a re-analysis of the deposited data

Results flagged for a closer look

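Ccng1 changed in opposite directions with maturation in all WT and all Sharpin-cpdm mice. The difference between Sharpin-cpdm and WT mice in the change from MHC I low to high cells was −0.29 on the log2 scale (SE 0.0608, limma adjusted p = 0.00626). Its adjusted p ranged from 0.00415 to 0.0956 over the 20 alternatives.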

How the results depend on the processing

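The 7 genes other than Cdkn1a gave 1160 values over 20 alternatives. Of these 1099 were kept, 30 lost their call, 10 gained a call and 21 changed sign, all of the last in differences that no setting called. Kept means the same direction and side of the threshold. For the untested Ptprv values it means a move smaller than the SD between replicates. Direct comparisons of HoilΔCd4 with Sharpin-cpdm and differences of effects entered only at an unadjusted limma p under 0.05. The Trp53 difference between HoilΔCd4 and WT high cells was 0.0042 in edgeR, 0.0052 in DESeq2, 0.0014 with library size only, 0.0026 without sample weights and 9.1e-05 with the mouse number as a fixed replicate block. That block gave −0.0041 for Trp53inp1 in the same comparison and 8.0e-05 for Trp53 in Sharpin-cpdm low cells. With Xist as a covariate the HoilΔCd4 low differences were −0.00064 for Trp53 and −0.012 for Mdm2. With each mouse left out, the log2 differences from WT in HoilΔCd4 cells ranged from −0.043 to 0.027 for Trp53 high, −0.031 to 0.046 for Trp53inp1 high, −0.021 to 0.054 for Mdm2 low and −0.0037 to 0.86 for Phlda3 high. Those in Sharpin-cpdm cells ranged from −0.050 to 0.036 for Trp53 low, −0.012 to 0.22 for Ptprv high, −0.16 to 0.67 for Phlda3 high and −0.099 to 0.014 for Zmat3 low. Both Phlda3 minima came without WT mouse 3.

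Counts of called genes of the wider list moved more. For HoilΔCd4 high cells (2) edgeR, DESeq2, no filter, no weights, the fixed replicate block, the Xist covariate and only the groups compared gave 1 each, and single mice left out 1 to 2. For Sharpin-cpdm low cells (4) edgeR, DESeq2 and no weights gave 2, the Xist covariate 1, and mice left out 1 (WT mouse 1) to 5. For Sharpin-cpdm high cells (8) mice left out gave 5 (WT mouse 3) to 9. For HoilΔCd4 against Sharpin-cpdm low cells (3) edgeR, a minimum of 10 counts and the Xist covariate gave 5, DESeq2 and no weights 6, and mice left out 0 (Sharpin-cpdm mouse 2) to 3. In high cells (6) only the groups compared gave 3, and mice left out 1 (Sharpin-cpdm mouse 3) to 6. For high minus low in HoilΔCd4 mice (23) mice left out gave 15 (HoilΔCd4 mouse 1) to 24. For the difference of the HoilΔCd4 effects (1) edgeR, DESeq2, no filter, no weights, no replicate block, the fixed replicate block, only the groups compared and mice left out all gave 0. For that of the Sharpin-cpdm effects (1) edgeR and DESeq2 gave 0, library size only, a minimum of 10 counts and a prior count of 3 gave 2, and mice left out 0 to 1. The causes were not tested. Of the called values of the 8 genes the fixed replicate block lost 1, the WT rise of Ccng1 (0.11, limma adjusted p = 0.0547), and without the random replicate block Zmat3 in HoilΔCd4 high cells passed (0.26, 0.0483).

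All WT mice were female, and 3 mice a genotype limit what can be seen: the 95% intervals of Trp53 and Mdm2 differences were about 0.10 wide on each side, while those of Phlda3 and Cdkn1a were wider because of their few counts.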
